A study of Mus musculus with 21 samples.

Results

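The set of growth factors and matrix products comprised 10 listed genes: Igf1, Pdgfa, Pdgfc, Hbegf, Areg, Vegfb, Ecm1, Fn1, Vcan and Prg4. A member was measured by the probe sets annotated to its symbol alone, and 9 of the 10 had such a probe set. Areg, which encodes the epidermal growth factor receptor ligand amphiregulin, was not analysed here. All 9 measured members passed a filter on low signal, set at a signal of 80.6, the table's median, to be exceeded on 3 or more arrays, as did 12169 of the 18194 genes with a single-symbol probe set. The study profiled sorted monocytes and macrophages by microarray during a peritonitis induced in mice with zymosan, a yeast cell wall preparation, in 7 groups of 3 arrays. All mice were female C57BL/6, aged 7 to 8 weeks.

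The 4 time points after an intraperitoneal injection of zymosan gave 5 groups from the peritoneal cavity. They were inflammatory monocytes at 4 h, inflammatory monocyte/macrophages at 18 h, inflammatory macrophages at 72 h, and Ly-6B+ and Ly-6B- inflammatory macrophages at 168 h. Mice that received no zymosan gave the 2 reference groups, tissue resident macrophages of the peritoneal cavity and Ly-6B+ bone marrow monocytes. Peritoneal cells were obtained by lavage and marrow cells by flushing bones and lysing red cells, so tissue of origin and isolation cannot be told apart in comparisons with the marrow group. The labels do not say whether an array held cells of 1 mouse or a pool, and p-values then measure only the spread between these arrays, which may be technical.

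The growth factors among the members are secreted or membrane-anchored ligands that bind receptor tyrosine kinases on nearby cells and direct their growth, migration and survival during repair. Matrix products form or modify the scaffold outside cells, and macrophages are a known source of both in healing tissue. In the peritoneal cavity the neighbouring cells are mesothelium, which lines the cavity, and fibroblasts beneath it.

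Labels were set against marker genes before the members were described. The summed signal of 6 macrophage identity markers (Adgre1, Csf1r, Cd68, Itgam, Lyz2, Mertk) was between 65600 and 128000 in every array. The 8 markers of resident peritoneal macrophages summed to 1100 to 1360 in bone marrow arrays and to 169000 to 187000 in resident arrays. Their sum was 16800 to 17800 at 18 h and 122000 to 163000 at 72 h. The part of resident cells in the differences between 18 h and 72 h was not tested. The 18 markers of mesothelial cells and fibroblasts, both common sources of matrix transcripts, had group means between 3.61 and 135 and summed to 512 to 1000 per array. Neutrophil and granule markers (7 of 8 measured, among them S100a9 and Mpo) summed to 68300 to 216000 in the marrow arrays, a range that reaches above that of the identity markers there (65600 to 70500), and to at most 4160 in other groups. Mast cell and B cell markers reached 6770 and 7990 in the highest 72 h array. The part of these cells in the results, including every comparison with the marrow group, was not tested; values without the 3 arrays that stand apart (the third of bone marrow and the second of 4 h and of 72 h) are given in the closing section.

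Promoter sequences are shown for Ecm1 and Igf1, whose mean signals were highest in resident macrophages, and for Vcan, which peaked in the 4 h group. RefSeq (GRCm38.p6) held a promoter window for 7 of the 10 listed genes. The 250 bases before the annotated start lie at chr3:95739570-95739819 on the minus strand for Ecm1, at chr10:87860861-87861110 on the plus strand for Igf1 and at chr13:89742513-89742762 on the minus strand for Vcan. Each is written 5′ to 3′ on the strand of its gene, with capitals marking the motif matches described next.
Ecm1: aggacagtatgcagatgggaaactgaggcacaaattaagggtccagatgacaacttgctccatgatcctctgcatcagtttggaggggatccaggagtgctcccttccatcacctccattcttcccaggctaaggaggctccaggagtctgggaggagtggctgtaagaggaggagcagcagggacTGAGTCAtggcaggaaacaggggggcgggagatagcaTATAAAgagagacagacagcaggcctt
Igf1: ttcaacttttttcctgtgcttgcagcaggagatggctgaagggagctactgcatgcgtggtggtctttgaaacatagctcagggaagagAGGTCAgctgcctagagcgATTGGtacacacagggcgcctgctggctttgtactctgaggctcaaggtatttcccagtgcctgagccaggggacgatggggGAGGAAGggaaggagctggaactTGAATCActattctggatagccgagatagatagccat
Vcan: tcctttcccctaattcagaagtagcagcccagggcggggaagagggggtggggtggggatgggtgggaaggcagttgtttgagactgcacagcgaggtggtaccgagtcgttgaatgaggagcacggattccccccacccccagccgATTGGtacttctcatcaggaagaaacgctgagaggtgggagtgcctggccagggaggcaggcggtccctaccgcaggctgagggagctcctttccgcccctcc

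Both strands were searched for 8 motifs, no matches overlapped, and distances are counted from a match's first base on the gene's strand. Ecm1 held a TATA box (TATAAA) 27 bases before the start, present in 12.4% of the 32851 RefSeq promoter windows of this length, and an AP-1 motif (TGANTCA) 64 bases before it, present in 6.75%. Igf1 held an AP-1 motif at 37 bases, a PU.1 core (GAGGAAG, in 10.6% of windows) at 60 bases, a CCAAT box on the opposite strand at 142 bases and a core site of nuclear receptors (AGGTCA, in 14% of windows) at 161 bases. Vcan held a CCAAT box on the opposite strand at 103 bases, a motif present in 33.8% of windows. The other motifs were a C/EBP motif (TTGCNNAA, in 9.56% of windows), a motif of GATA factors (letters GATAAG, 6.55%) and the E-box of the MITF family (CACGTG, 6.02%), none of which was in the 3 windows. These letters are a description of the windows, and no binding was measured. GC content was 54.0%, 52.8% and 62.4% for Ecm1, Igf1 and Vcan.

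Signals below are MAS5 signals, a linear brightness that the authors scaled on each array. Differences are between group means of log2(signal + 15), a scale that understates the change of weak genes. A gene was called higher or lower at a Benjamini-Hochberg adjusted p under 0.05 in limma when its log2 fold change was also 1 or more in size, with p-values adjusted over all 12169 genes. An F test over the 7 groups passed for 7 of the 9 members, against 69.8% of all genes tested, so the count alone sets the members little apart. Ecm1 had the highest F of the 12169 genes (F = 1150, adjusted p = 3.5e-20). Vcan ranked 31, Prg4 39 and Igf1 560, whereas Hbegf, Pdgfa and Vegfb passed from ranks 5143 to 7049. Fn1 (adjusted p = 0.111) and Pdgfc (adjusted p = 0.512) did not pass. A second, less bright Fn1 probe set did pass the F test when tested among 22163 probe sets (adjusted p = 7.27e-08).

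Among the growth factors, Igf1 covered the widest range. It encodes insulin-like growth factor 1, a secreted ligand that acts through the IGF-1 receptor. The bone marrow arrays read 5.31, 1.47 and 34.58 and the 4 h arrays 39.85, 114.5 and 3.05, and the 2 groups overlapped. The 18 h arrays read 180.5, 588 and 315.2, above every earlier array. At 72 h the signals were 2141, 1960 and 2958. The 168 h Ly-6B- arrays read 3442, 2963 and 3682 and the resident arrays 6472, 3977 and 5275, whereas the 168 h Ly-6B+ arrays read 797.6, 964.5 and 1064, below every 72 h array. The difference between Ly-6B+ and 72 h macrophages was not called in limma (log2 fold change -1.29, adjusted p = 0.194). In that comparison 5 of 9 members and 2342 of all 12169 genes had no overlap between arrays. In these sorted bulk samples, fewer expressing cells and less RNA per cell cannot be told apart.

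Igf1 rose by 2.75 ± 0.51 (log2 fold change ± SE) from 4 h to 18 h (adjusted p = 0.000185) and by 2.78 ± 0.51 from 18 h to 72 h (adjusted p = 0.000239). The difference between 4 h and bone marrow, 0.98 ± 0.51, did not pass (adjusted p = 0.123). This value depended on single arrays and was called under 4 of 19 alternatives. It was 1.72 without 4 h replicate 3 (adjusted p = 0.00323), 1.46 without bone marrow replicate 3 (adjusted p = 0.0296) and 0.3 without 4 h replicate 2 (adjusted p = 0.644), and the alternatives ran from 0.28 to 1.72. The other 3 Igf1 probe sets gave -0.1, 0.27 and 0.28, none of them called. Resident macrophages exceeded bone marrow monocytes by 7.66 ± 0.51 (adjusted p = 9.26e-11), a value set partly by the added constant because the highest marrow signal was 34.58. As a share of the resident mean, Igf1 stood at 0.263% in bone marrow, 1% at 4 h, 6.89% at 18 h, 44.9% at 72 h, and 18% and 64.1% in the Ly-6B+ and Ly-6B- macrophages of 168 h.

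At 168 h, in the main fit without pairing, Igf1 was lower in Ly-6B+ than in Ly-6B- macrophages by a log2 fold change of -1.82 ± 0.51 (adjusted p = 0.0285). The same group was lower than resident macrophages by -2.44 ± 0.51 (adjusted p = 0.00296). The first of these calls was lost when any 1 of the 6 arrays at 168 h was left out (adjusted p 0.0562 to 0.0966), with log2 fold changes between -1.91 and -1.71. With a pseudocount of 1 both calls were lost (adjusted p = 0.243 and 0.0949). All 4 Igf1 probe sets, tested among 22163 probe sets, were called in Ly-6B+ against Ly-6B- macrophages, with log2 fold changes of -1.82, -1.81, -1.63 and -1.59. The sum of the resident macrophage markers was also lower, at 72300 to 97100 in Ly-6B+ and 160000 to 189000 in Ly-6B- arrays. These markers did not all move alike. Timd4 read 1352 to 2141 in Ly-6B+ and 16310 to 17220 in Ly-6B- arrays, whereas C1qc overlapped (17780 to 25700 and 24580 to 33390). Classical monocyte markers (4 of 6 measured) summed to 35700 to 43900 in Ly-6B+ and to 2300 to 5460 in Ly-6B- arrays. Their part in the Igf1 difference was not tested.

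Hbegf encodes a membrane-anchored ligand of the epidermal growth factor receptor that proteases release from the cell surface. Its signal lay between 72.45 and 272.5 in all arrays. The bone marrow arrays read 79.41, 72.45 and 105.3 and the 4 h arrays 217.1, 248.2 and 272.5, with no overlap. The 18 h arrays, 76.87, 123.7 and 170.8, lay below every 4 h array. In the 168 h Ly-6B+ group the signals were 249.6, 266.7 and 236.5, again in the range of the 4 h arrays. The Ly-6B- arrays of 168 h (191.7, 251.1 and 183.5) and the resident arrays (135.3, 236.7 and 174.4) also overlapped the 4 h arrays. Ly-6B+ macrophages were called in limma against neither Ly-6B- (0.26, adjusted p = 0.624) nor resident macrophages (0.46, adjusted p = 0.299).

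Hbegf rose by 1.38 ± 0.25 from bone marrow to 4 h (adjusted p = 0.000107). The later difference, -0.96 ± 0.25 between 18 h and 4 h (adjusted p = 0.00389), fell short of the minimum fold, as did 0.95 ± 0.25 between resident and bone marrow cells (adjusted p = 0.00351). A second Hbegf probe set, correlated with the first at r = 0.83 over 21 arrays, was called in the comparison of resident with bone marrow cells (1.84, adjusted p = 6.89e-05) as well as at 4 h (1.6, adjusted p = 0.00032), and not at 18 h against 4 h (-0.44, adjusted p = 0.312).

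Of the platelet-derived growth factor ligands, which act on fibroblasts and other mesenchymal cells, Pdgfa differed and Pdgfc was weak throughout. Pdgfa read 81.43, 71.43 and 93.09 in bone marrow and 140, 225.6 and 202.8 in resident macrophages, without overlap. Its highest group was the 168 h Ly-6B- macrophages with 240, 196.8 and 205.2. The 18 h arrays were spread widely, at 48.57, 167.3 and 89.08. Resident macrophages exceeded bone marrow by 1.06 ± 0.3 (adjusted p = 0.0063), a call lost under 5 of 18 alternatives, 3 of them leaving out 1 array (lowest value 0.93). The second Pdgfa probe set gave 2.23 in that comparison (adjusted p = 7.14e-06, r = 0.79 with the first).

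Pdgfc, which is secreted as a latent dimer and activated by proteolysis, was above the filter value in 3 of 21 arrays, with signals from 28.55 to 105.3. By this probe set no comparison was called. A second Pdgfc probe set, also above the filter value in 3 arrays, did not follow the first (r = -0.15). It read 50.46, 59.19 and 81.12 at 18 h, above every bone marrow and 4 h array (at most 27.41), and was called higher at 18 h than at 4 h (1.6, adjusted p = 0.0232), where the first gave -0.44 (adjusted p = 0.364). Vegfb, a ligand of the receptor Flt1, was also weak, from 8.35 to 119.7. It was lowest at 4 h, with 8.35, 35.13 and 8.74, below every bone marrow array (46.31, 86.03 and 90.3). The 18 h arrays (69.4, 37.66 and 55.33) lay just above the 4 h arrays, and the 72 h arrays (95.6, 119.7 and 91.15) formed the highest group. Vegfb fell by 1.52 ± 0.4 on the log2 scale at 4 h (adjusted p = 0.00361) and rose by 1.16 ± 0.4 at 18 h (adjusted p = 0.0253). The second call was lost under 8 of 18 alternatives.

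**Figure D1:**
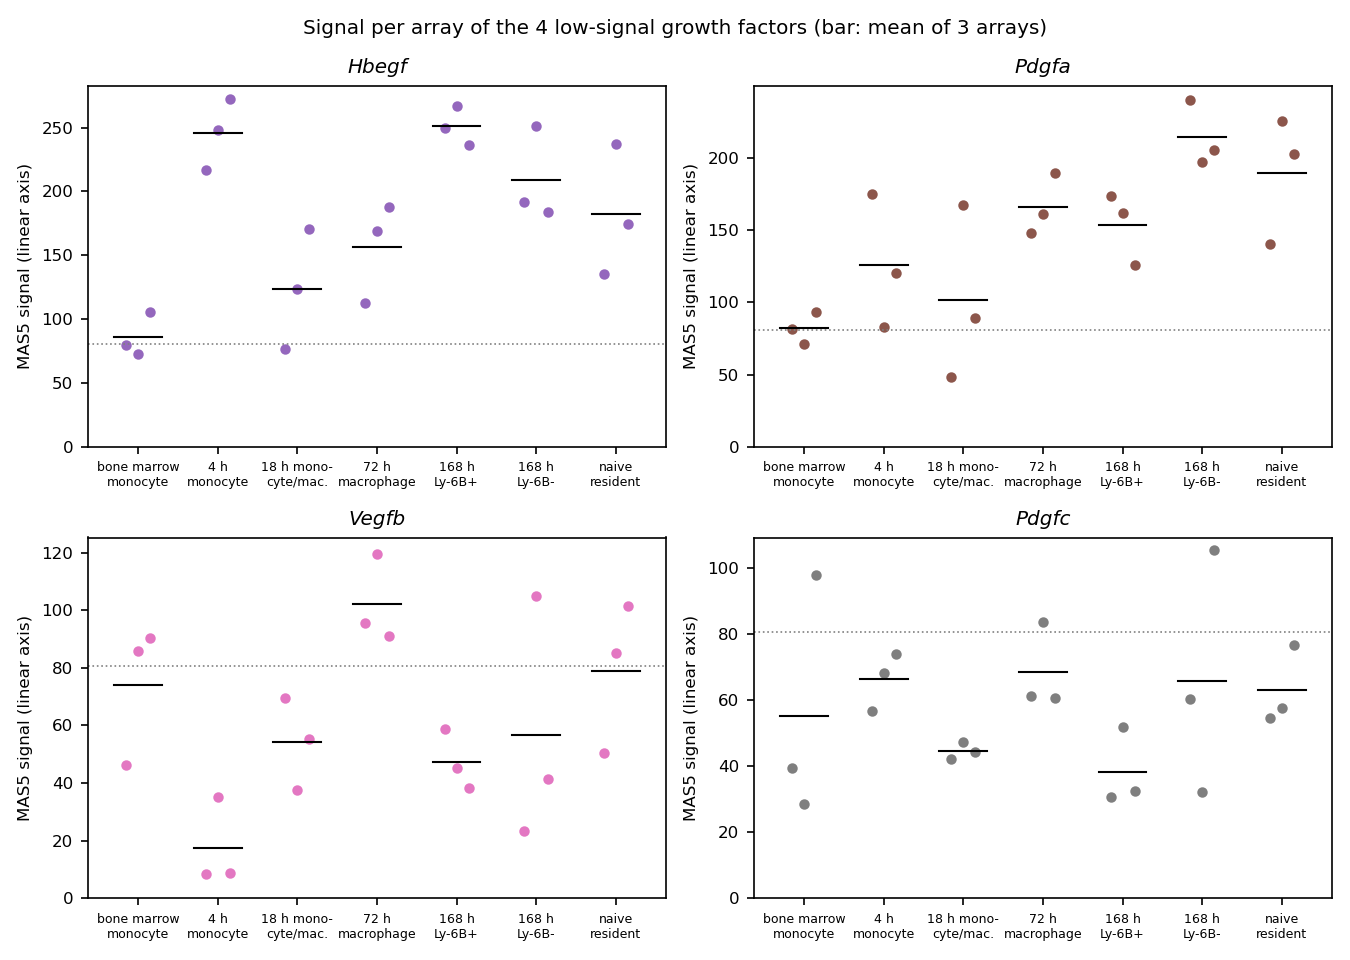
MAS5 signal (linear axis) of Hbegf, Pdgfa, Vegfb and Pdgfc in each of 21 arrays, with points for arrays, bars for means of 3 arrays and a dotted line at the filter value of 80.6. Hbegf stands at 217.1 to 272.5 at 4 h against 72.45 to 105.3 in bone marrow, and Vegfb is lowest at 4 h.

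Among the matrix products, Ecm1 and Prg4 were called higher at each step from marrow to 4 h, 18 h and 72 h. Their mean signals were highest in resident macrophages, a separate reference group. Ecm1 encodes extracellular matrix protein 1, a secreted glycoprotein that binds other matrix components. Bone marrow arrays read 208.7, 229.6 and 212.8, 4 h arrays 1533, 1655 and 1564, and 18 h arrays 9570, 8651 and 9578. Arrays of the same group differed little, and the 3 groups did not overlap. Later groups read 17140, 19240 and 24220 at 72 h, 15140, 15070 and 13560 in the Ly-6B+ cells of 168 h, 26220, 24150 and 26550 in their Ly-6B- counterparts, and 25810, 28020 and 28690 in resident macrophages. The Ly-6B+ arrays lay below the arrays of the other 3 late groups.

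Ecm1 rose by 2.78 ± 0.11 from bone marrow to 4 h (adjusted p = 6.06e-14), by 2.54 ± 0.11 to 18 h (adjusted p = 1.78e-12) and by 1.11 ± 0.11 to 72 h (adjusted p = 1.07e-07). The last step fell under the minimum fold without 72 h replicate 3 (0.97) and when arrays were set to a common median (0.99). Ly-6B+ macrophages differed from Ly-6B- macrophages by -0.81 ± 0.11 (adjusted p = 2.67e-05) and from resident macrophages by -0.91 ± 0.11 (adjusted p = 6.53e-06), both past the p threshold and short of the minimum fold. At 72 h Ecm1 differed from resident macrophages by -0.46 ± 0.11 (adjusted p = 0.0373). The 95% interval of the difference between Ly-6B- and resident macrophages ran from -0.33 to 0.12.

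Prg4 encodes lubricin, a secreted mucin-like proteoglycan that lubricates surfaces. Its bone marrow signals were 43.58, 68.49 and 43.31, all under the filter value. The 4 h arrays read 938, 2792 and 778.1, with replicate 2 above the other two. The 18 h arrays read 4040, 4027 and 3180. From 72 h on, signals lay between 26270 and 38530 in all 12 arrays, which included Ly-6B+ macrophages at 26270, 29150 and 30910. The highest value of the whole table was 49770. Prg4 and Ecm1 each had 1 probe set, and whether their late signals were limited by the range of the scanner was not tested. Prg4 was neither called nor past the p threshold between the 168 h groups (-0.19 ± 0.29, adjusted p = 0.776); whether the genes differ in this contrast was not tested.

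Prg4 rose by 4.29 ± 0.29 at 4 h (adjusted p = 1.87e-10), by 1.54 ± 0.29 from 4 h to 18 h (adjusted p = 0.000198) and by 3.02 ± 0.29 from 18 h to 72 h (adjusted p = 7.96e-08). Resident macrophages exceeded bone marrow monocytes by 9.07 ± 0.29 (adjusted p = 9.75e-16). Without 4 h replicate 2 the first step was 3.72 (adjusted p = 1.02e-12) and the second 2.11 (adjusted p = 4.76e-09).

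**Figure D2:**
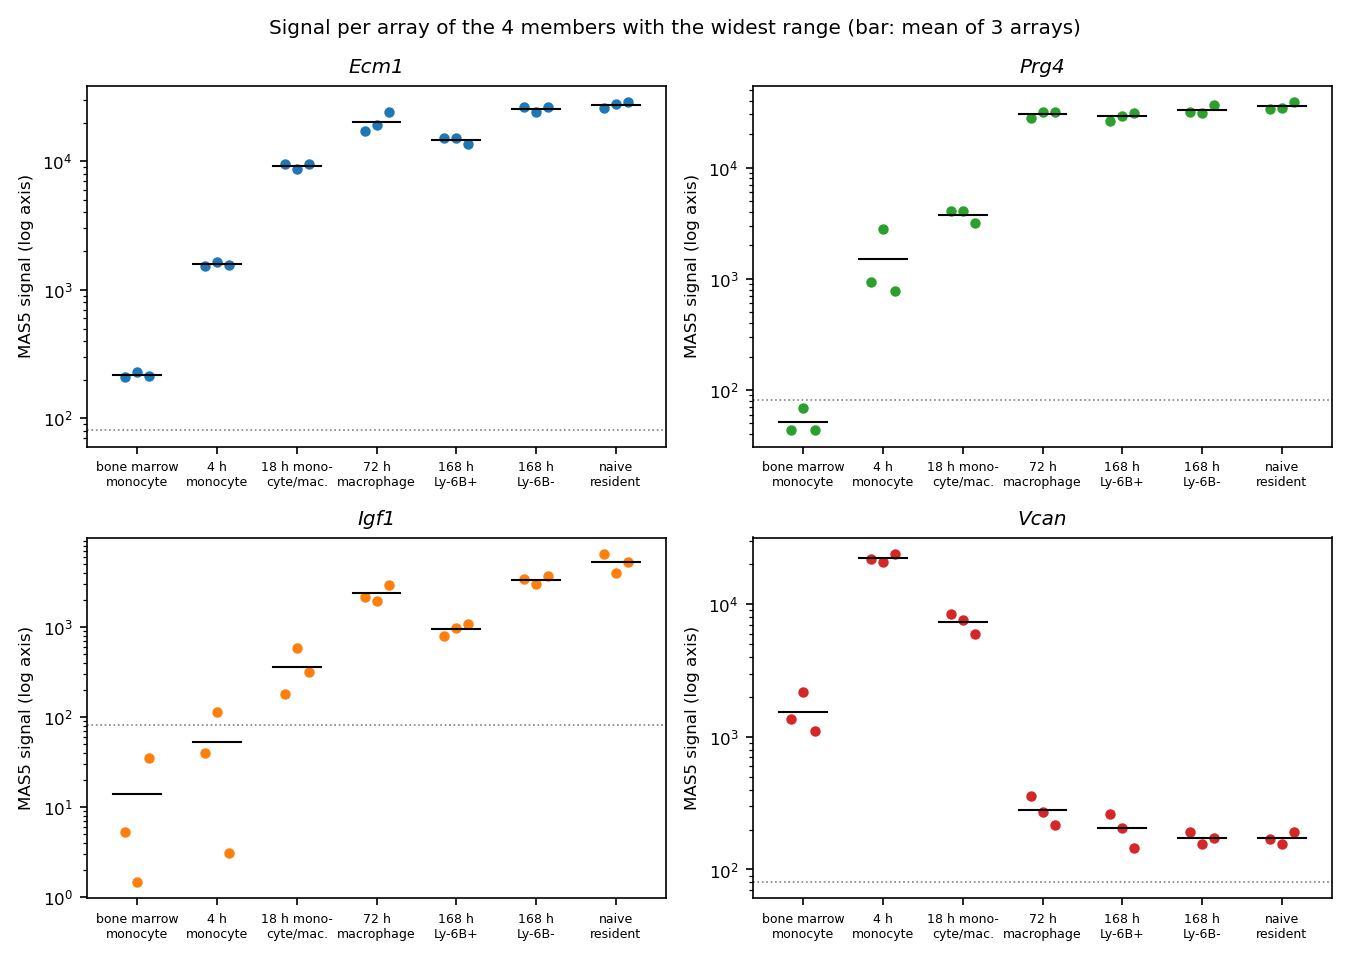
MAS5 signal (log axis) of Ecm1, Prg4, Igf1 and Vcan in each of 21 arrays, with points for arrays, bars for means of 3 arrays and a dotted line at the filter value of 80.6. Ecm1, Prg4 and Igf1 are higher in resident than in bone marrow cells, and Vcan peaks at 21020 to 24020 at 4 h.

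Of the 8 markers of resident macrophages, 5 were above the filter value in all 3 arrays of 4 h, against 1 in bone marrow. Gata6, at 68.51 and 67.04 in replicates 1 and 3, was close to its marrow signals (47.48, 51.5 and 66.51). Timd4 in replicates 1 and 3 (57.58 and 34.65) and Marco in replicate 3 (11.13) were also under the filter value. The lowest shares below therefore rest on weak signals. Like Prg4, the markers were highest in replicate 2. As a share of the resident mean, the 8 markers had medians of 1.4%, 3.94% and 0.856% in replicates 1, 2 and 3, with ranges of 0.309% to 2.45%, 1.05% to 6.55% and 0.0695% to 2.96%. Prg4 stood at 2.64%, 7.86% and 2.19% in the same arrays and Igf1 at 0.76%, 2.19% and 0.0582%. Prg4, Igf1 and all 8 markers were highest in replicate 2. Ecm1 stood at 5.57%, 6.02% and 5.69% and varied little. At 18 h the marker medians were 6.23%, 6.57% and 5.13%, with ranges of 2.38% to 26%, 1.96% to 28.2% and 1.24% to 29.7%, the highest being C1qc in each array. Prg4, at 11.4%, 11.3% and 8.96%, and Igf1, at 3.44%, 11.2% and 6.01%, lay within these ranges. Ecm1, at 34.8%, 31.5% and 34.8%, lay above the highest marker in each array. The part of carried-over resident cells in these values was not tested.

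**Figure D3:**
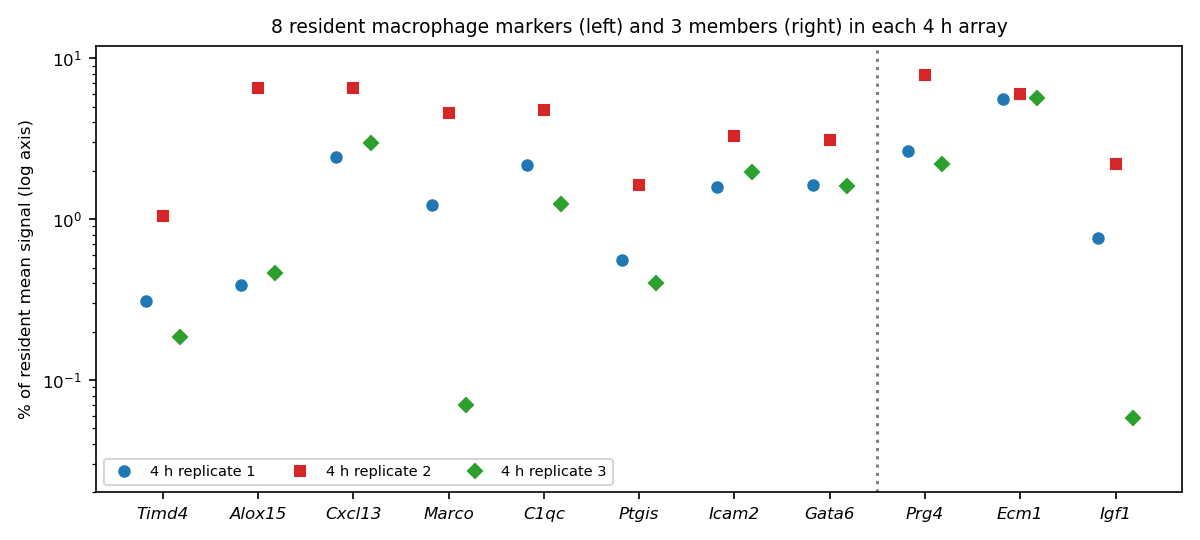
Signal in each 4 h array as a percentage of the resident macrophage mean (log axis) for 8 resident macrophage markers, left of the dotted line, and for Prg4, Ecm1 and Igf1, right of it. Replicate 2 is the highest for every marker and for Prg4 (7.86%) and Igf1 (2.19%), while the 3 Ecm1 points lie between 5.57% and 6.02%. Signals of Timd4, Marco, Gata6 and Igf1 were under the filter value in some of these arrays.

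Vcan followed another course. It encodes versican, a chondroitin sulphate proteoglycan that binds hyaluronan in provisional matrix. The bone marrow arrays read 1359, 2188 and 1106 and the 4 h arrays 22130, 21020 and 24020. At 18 h the signals were 8430, 7638 and 6004, between these groups. The 72 h arrays had fallen to 360.5, 270.2 and 215.7, below every bone marrow array. The 168 h and resident arrays lay between 145.1 and 264.1, with resident macrophages at 170.7, 154.5 and 191.1.

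Vcan rose by 3.9 ± 0.23 at 4 h (adjusted p = 2.55e-11), then changed by -1.62 ± 0.23 to 18 h (adjusted p = 8.87e-06) and by -4.65 ± 0.23 to 72 h (adjusted p = 8.15e-12). Resident macrophages were lower than bone marrow monocytes by -3.01 ± 0.23 (adjusted p = 6.94e-10). Of 8 Vcan probe sets, 6 passed the filter. The 3 brightest, the one used among them, were called in each of these 4 comparisons. The 3 weakest were above the filter value only in the 3 arrays of 4 h, so they passed through the group where they were high and their calls in the comparisons with 4 h add no support. They were not called in the other 2, and the mean over all probe sets gave -0.99 for resident against bone marrow cells. The second brightest (r = 0.98 with the one used) was also called higher at 72 h than in resident macrophages (1.73, adjusted p = 0.0102), where the one used gave 0.64 (adjusted p = 0.287) and the third brightest 0.01 (adjusted p = 0.998).

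Fn1 encodes fibronectin, an adhesive glycoprotein of provisional and mature matrix, and its 2 probe sets gave different accounts. The brighter one, used in the counts, read 24570 to 25980 in bone marrow, 25910 to 27320 at 4 h and 30440 to 34360 in resident macrophages, near the top of a table whose highest value was 49770. Its difference between resident and bone marrow cells was 0.32 ± 0.1 (adjusted p = 0.0127). The second probe set read 2247, 1998 and 1466 in bone marrow, 4577, 4408 and 2283 at 4 h, 8418, 8930 and 6929 at 18 h and 9935, 7045 and 9677 in resident macrophages. It was lowest in bone marrow and highest in 168 h Ly-6B+ macrophages (10440, 11470 and 12600).

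By the second probe set Fn1 was higher in resident than in bone marrow cells by 2.22 ± 0.25 (adjusted p = 2.65e-07) and at 18 h than at 4 h by 1.16 ± 0.25 (adjusted p = 0.000853), and the 4 h difference of 0.93 ± 0.25 (adjusted p = 0.00416) was short of the minimum fold. The correlation between the 2 probe sets was 0.56 over 21 arrays. Whether the brighter probe set was limited by the range of the scanner was not tested.

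**Figure D4:**
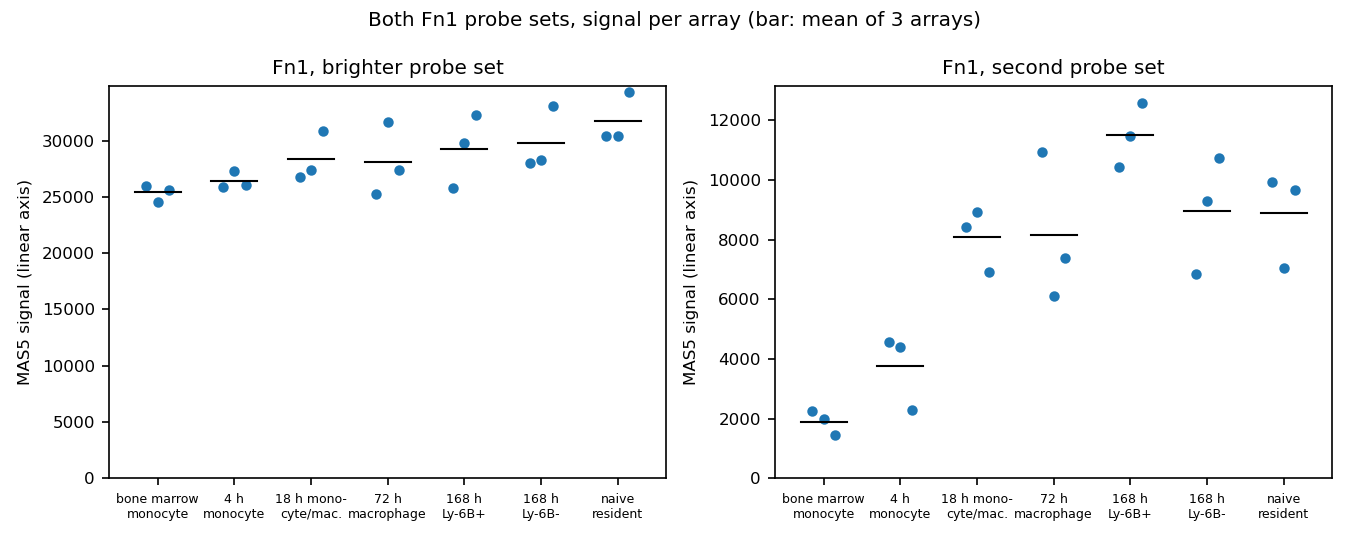
MAS5 signal (linear axes from 0) of both Fn1 probe sets in each of 21 arrays, with points for arrays and bars for means of 3 arrays. The brighter probe set stays between 24570 and 34360, while the second runs from 1466 in bone marrow to 12600 in 168 h Ly-6B+ macrophages.

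Counted by comparison, more members were called in the comparisons up to 72 h and between the reference groups than among the late groups. The members were chosen with earlier results of these data known. Counts set against shares of all genes, here and below, are therefore a description only. Between resident macrophages and bone marrow monocytes 5 of 9 were called (4 higher, 1 lower), against 23.1% of all genes tested (12.9% higher, 10.2% lower), with a member median of 0.95 and a median over all genes of 0.05. At 4 h against bone marrow 5 of 9 were called (4 higher, 1 lower), against 22% (7.5% higher, 14.5% lower), with medians of 0.98 and -0.14. From 4 h to 18 h the count was 5 of 9 (4 higher, 1 lower), against 15.5% (10.9% higher, 4.56% lower), with medians of 0.1 and 0.14, and from 18 h to 72 h it was 4 of 9 (3 higher, 1 lower), against 12.5% (9.03% higher, 3.46% lower), with medians of 0.76 and 0.03. These comparisons share groups: 4 h and 18 h arrays each enter 2 of them, and bone marrow arrays serve as control in 2. Prg4 and Ecm1 were called higher in all 4, and Vcan was called in all 4, higher only at 4 h.

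Differences among the late groups were fewer. In Ly-6B+ against Ly-6B- macrophages at 168 h, Igf1 was the 1 member called of 9, against 3.94% of all genes (2.41% lower), with a member median of -0.19. None of 9 was called in limma between Ly-6B- and resident macrophages, against 0.0411% of all genes. Of the 9, 0 had an unadjusted p under 0.05, against 433 of all 12169 genes. No member was called at 72 h against resident macrophages either, against 0.731% of genes, although 1 further Vcan probe set was called, as given above. In that comparison 3 of 9 had an unadjusted p under 0.05, against 1308 of all 12169 genes. In Ly-6B+ against resident macrophages Igf1 was again the 1 called, against 4.38% (2.4% lower). The intervals for the weak genes remained wide, such as -1.36 to 0.32 for Vegfb in Ly-6B- against resident macrophages.

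**Figure D5:**
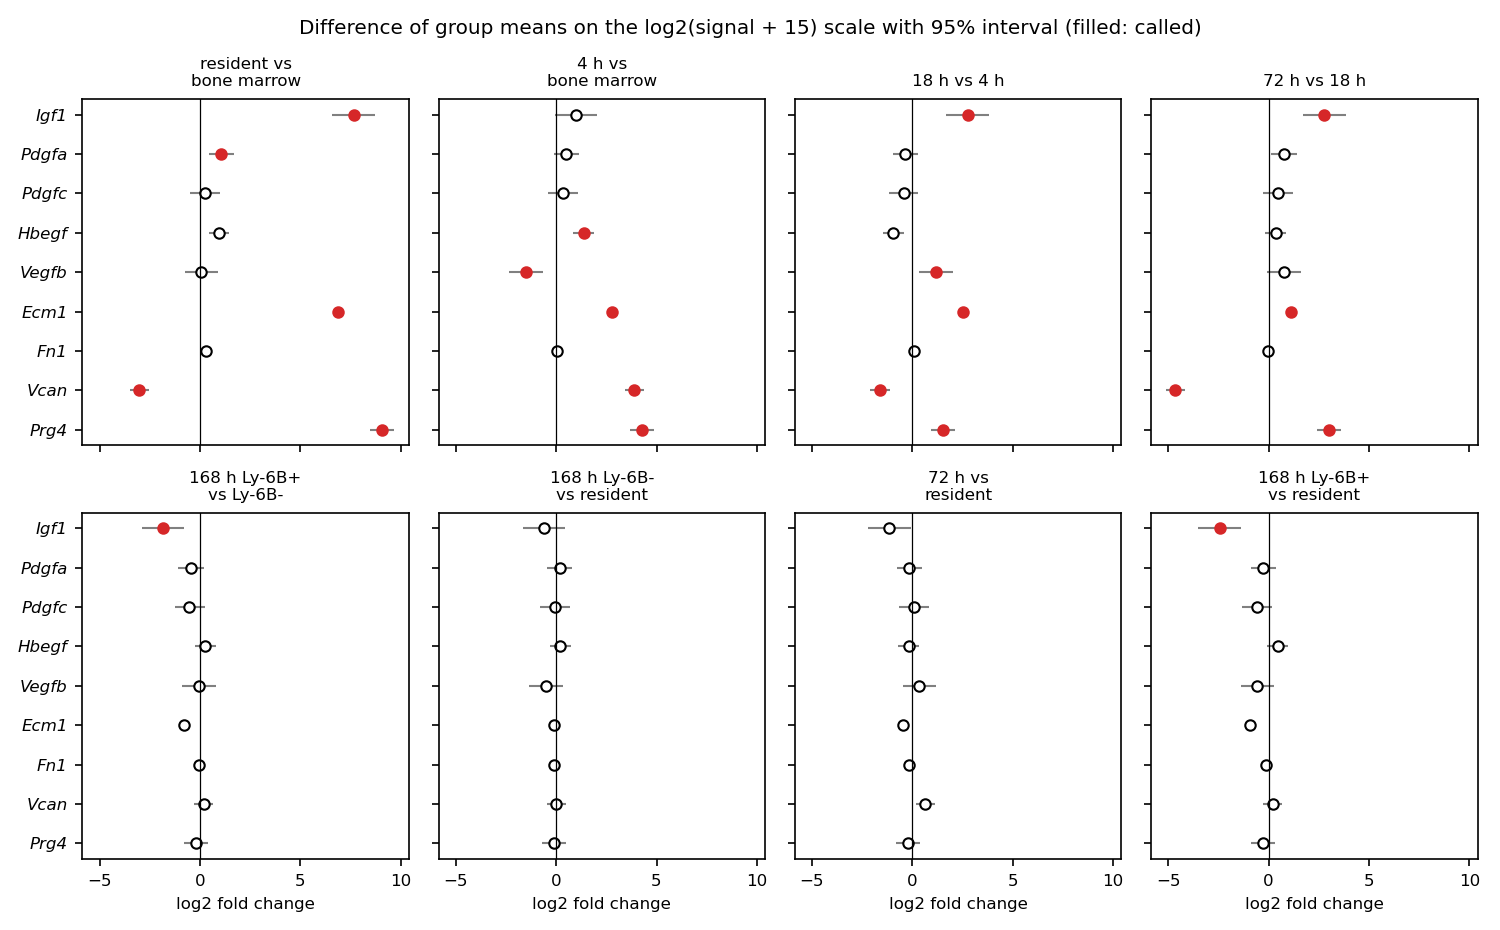
Difference of group means on the log2(signal + 15) scale for the 9 members in 8 comparisons, with 95% intervals of the limma fit and filled points for called differences. Filled points number 5, 5, 5 and 4 in the upper panels and 1, 0, 0 and 1 in the lower ones.

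Groups were also placed in the order of each member's mean signal, and neighbours in that order were compared. Of 54 neighbouring pairs 11 were called, against 3.67% of such pairs over all genes. For Igf1 the order was bone marrow, 4 h, 18 h, 168 h Ly-6B+, 72 h, 168 h Ly-6B- and resident; the steps from 4 h to 18 h and from 18 h to Ly-6B+ (1.49, adjusted p = 0.0336) were called. Ecm1 and Prg4 had the same order. For Ecm1 the 2 lowest steps were called, and the step from 18 h to Ly-6B+ was 0.65 (adjusted p = 0.000117). For Prg4 the step from 18 h to Ly-6B+ was called at 2.94 (adjusted p = 1.73e-07), and the 4 highest groups overlapped with their neighbours. Vcan ran from resident, Ly-6B-, Ly-6B+ and 72 h cells, whose neighbours overlapped, to bone marrow (2.37 above 72 h, adjusted p = 3.36e-08), 18 h (2.28 above bone marrow, adjusted p = 8.79e-08) and 4 h. No neighbouring pair of Hbegf, Pdgfa, Pdgfc or Fn1 was called, and 1 pair of Vegfb was, the step from 4 h to Ly-6B+ (1.03, adjusted p = 0.0374).

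The pattern over the 21 arrays was most alike between Ecm1 and Prg4 among the members (Pearson r = 0.98), followed by Igf1 with each of them (r = 0.93). Vcan ran against these, with r from -0.76 to -0.58. Over all other genes tested, Ecm1 was most like Sdc3, a syndecan (r = 0.993), and C1qa, a complement subunit (r = 0.991). Prg4 was most like Apoe (r = 0.989) and Pltp (r = 0.986), 2 genes of lipid transport. Igf1 was most like Fgfr1, a fibroblast growth factor receptor (r = 0.979), and Ltbp1, which binds latent TGF-beta (r = 0.978). Vcan was most like Arhgap30 (r = 0.977) and Cyp51, a sterol synthesis enzyme (r = 0.972). The best matches of the weak members were lower: Socs3 (r = 0.854) and Psen2 (r = 0.852) for Hbegf, Myo10 (r = 0.842) and Gm4951 (r = 0.838) for Pdgfa, and Mrps31 (r = 0.84) and Snrnp25 (r = 0.834) for Vegfb. The arrays of a group share its cells, so these values describe mainly the 7 group means, and 375 genes had r over 0.9 with Igf1.

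The wider pathway lists, also chosen with earlier results known, place the members among other genes of the same roles. Of 36 further growth factor ligands 20 were tested, and 4 were called higher and 2 lower in resident against bone marrow cells (list median 0.08, all genes 0.05), against 12.9% higher and 10.2% lower over all genes. At 4 h against bone marrow 4 ligands were higher and 0 lower (list median 0.36, all genes -0.14), against 7.5% and 14.5%. Tgfb2 had the largest F of the list and rose late, from 330 ± 45.5 (SD, n = 3) at 18 h to 10800 ± 2490 at 72 h (4.95 ± 0.32, adjusted p = 4.34e-10). Like Igf1 it was lower in Ly-6B+ than in Ly-6B- macrophages (-3.21 ± 0.32, adjusted p = 8.18e-07). Bmp2, a bone morphogenetic protein, rose from 24.5 ± 13.1 at 4 h to 353 ± 140 at 18 h (3.22 ± 0.29, adjusted p = 2.96e-08). Nrg1, a ligand of ERBB receptors, and Vegfa, a ligand of VEGF receptors, were highest at 4 h, at 930 ± 157 and 529 ± 99.4. Both rose from bone marrow to 4 h, by 1.93 ± 0.47 (adjusted p = 0.00187) and 1.27 ± 0.32 (adjusted p = 0.00253). Vegfa was also the ligand called between Ly-6B- and resident macrophages (2.17 ± 0.32, adjusted p = 0.00486). Ly-6B+ macrophages were called higher in Vegfa than resident macrophages as well (2.86 ± 0.32, adjusted p = 3.84e-06). The resident Vegfa mean was 26.7 ± 19.5, under the filter value, so both differences are set partly by the added constant.

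Of 33 receptors, binding proteins and releasing proteases 22 were tested. At 4 h against bone marrow 5 were higher and 4 lower (list median 0.11, all genes -0.14), against 7.5% and 14.5% of all genes. In resident against bone marrow cells 3 were higher and 2 lower (list median 0.18, all genes 0.05), against 12.9% and 10.2%, which is near the share over all genes. Insr, the insulin receptor, fell at 4 h (-1.61 ± 0.15, adjusted p = 2.6e-08) and was 2800 ± 336 in resident macrophages against 957 ± 94.8 in bone marrow. Igfbp4, which binds IGF-1, fell from 4890 ± 2780 to 230 ± 86.6 at 4 h (-4.22 ± 0.28, adjusted p = 1.92e-10) and was highest in Ly-6B+ macrophages (11200 ± 1260). Nrp1, a co-receptor of VEGF, was lowest at 4 h (1220 ± 218). Errfi1, an inhibitor of the epidermal growth factor receptor, rose at 4 h by 2.83 ± 0.19 (adjusted p = 2.3e-10), as Hbegf did.

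Of 51 matrix proteins, matrix enzymes and matrix receptors 32 were tested. At 4 h 13 were higher and 2 lower than in bone marrow (list median 0.7, all genes -0.14), against 7.5% and 14.5% of all genes. From 4 h to 18 h 4 were higher and 7 lower (list median -0.2, all genes 0.14), against 10.9% and 4.56%. In resident against bone marrow cells 12 were higher and 1 lower (list median 0.38, all genes 0.05), against 12.9% and 10.2%. Tgm2, a transglutaminase that cross-links matrix proteins, rose from 107 ± 56.8 to 21600 ± 2010 at 4 h (7.58 ± 0.29, adjusted p = 6.06e-14) and, like Vcan, was lower at 18 h (-1.22 ± 0.29, adjusted p = 0.00192). Sdc3 rose from 941 ± 145 in bone marrow to 18300 ± 1710 in resident macrophages. Ltbp1 rose from 352 ± 101 at 18 h to 8360 ± 1110 at 72 h (4.54 ± 0.43, adjusted p = 7.17e-08) and was lower in Ly-6B+ than in Ly-6B- macrophages (-2.65 ± 0.43, adjusted p = 0.000269). Emilin1, an elastic fibre glycoprotein, rose by 2.66 ± 0.2 from 18 h to 72 h (adjusted p = 3.2e-09).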

How the data were processed

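Total RNA of 21 sorted cell samples was amplified in 2 cycles from 100 ng and hybridised to Affymetrix arrays, per the labels' protocols. The deposited intensity values are MAS5 signals on a linear scale made with Affymetrix Expression Console 1.2, per the submitters' processing notes. The 2% trimmed mean was 500 on every array and array medians were 67.3 to 93. Precision is limited by having 3 arrays a group. Of 45101 probe sets, 34958 were annotated to 1 symbol, 932 to several and 9211 were not named. A gene was represented by its single-symbol probe set with the highest mean signal, with no change of normalization. limma 3.58.1 (R 4.3.3), with lmFit and eBayes (trend), was run on log2(signal + 15), with 15 the rounded 20th percentile of the whole table, over 21 arrays (14 residual degrees of freedom). It was first tested on simulated data.

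The members and lists were chosen with earlier results of these data known. Every member is named, with the 4 genes of largest F in each wider list and the 2 genes of highest correlation with each member past the F test. Alternatives covered the pseudocount, filter, scaling, probe set choice, model and each array left out. Replicate numbers were checked for pairing by correlating deviations from group means: all 3 correlations exceeded 0.1 for Ly-6B+ against Ly-6B- macrophages alone (0.3, 0.28 and 0.18), so the numbers were taken to pair those samples. The main fit did not use this pairing. Counts with the replicate number as a block are given in the closing section. Promoter windows came from RefSeq.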

Additional observations from a re-analysis of the deposited data

How the results depend on the processing

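Over 72 member fold changes and 1328 alternative values, no called difference reversed; 13 of 21 calls were kept under every alternative run and 8 were lost under at least 1, while 5 of 51 uncalled differences were called under at least 1. With a pseudocount of 1, the count for Ly-6B+ against Ly-6B- macrophages fell to 0 and that for Ly-6B+ against resident macrophages to 0; without the trend in eBayes the former was also 0. With no minimum fold, these comparisons gave 2 and 2 members, and 72 h against resident macrophages 1. A filter at the 75th percentile of signal kept 5 members, of which 3 were called at 4 h against bone marrow and 4 passed the F test. Leaving out 1 array at a time gave 4 to 6 members for resident against bone marrow, 5 to 6 for 4 h against bone marrow, 4 to 5 for 18 h against 4 h, 3 to 5 for 72 h against 18 h, 0 to 0 for Ly-6B+ against Ly-6B- macrophages, 1 to 1 for Ly-6B+ against resident, 0 to 0 for the other 2 comparisons, 7 to 7 for the F test and 9 to 12 of 54 neighbouring pairs. The causes were not tested. With the replicate number as a block, counts were 5, 5, 5, 4, 1, 0, 0 and 1 in the order of the report, 8 for the F test and 11 pairs; no count changed by over 1.5 times. Leaving out the 3 arrays that stand apart, chosen after seeing the data, gave 6, 5, 5, 4, 1, 0, 0 and 1, with 7 for the F test and 11 pairs. Setting arrays to a common median shifted log2 fold changes by 0.36 at 4 h against bone marrow and by -0.29 at 18 h against 4 h, with Igf1 then called at 4 h (1.35, adjusted p = 0.0301) and Vegfb not called at 18 h (0.87, adjusted p = 0.089). Signals near the added constant, as in Igf1 of bone marrow, Pdgfc and Vegfb, limit what these members can show.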
